A study of Mus musculus with 3 samples.

Results

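Hedgehog signalling was examined through 9 genes of the pathway, the ligands *Ihh*, *Shh* and *Dhh*, the receptor *Ptch1*, the transducer *Smo*, the ligand-binding inhibitor *Hhip* and the transcription factors *Gli1*, *Gli2* and *Gli3*. They were chosen by name and all 9 were found among the 23421 genes of the expression table. The table holds 1 RNA-sequencing library each of wild-type (WT), tw18/+ and tw18/tw18 embryos at embryonic day 6.5. For its in situ hybridizations of that day, the study describes the mutant embryos as slightly younger. A difference in stage between the libraries was not tested here. The labels name the strain 129/SvEv, the study mentions that backgrounds differed between its embryos, and all embryos came from crosses between tw18/+ animals. tw18 is a mouse *t* haplotype that carries a large deletion on chromosome 17, and *Ppp2r1a*, which encodes the scaffolding subunit of protein phosphatase 2A, lies in the deleted segment. All cells of tw18/+ embryos lack 1 copy of the deleted segment and all cells of tw18/tw18 embryos lack both, so that no value here belongs to *Ppp2r1a* alone. The labels give the tissue as epiblast, whereas the methods of the study describe the embryo proper, which is epiblast with the visceral endoderm around it. How many embryos went into a library is not given in the sources used here.

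Hedgehog ligands are secreted, lipid-modified proteins that bind the membrane protein Ptch1 on the receiving cell. Unbound Ptch1 keeps the membrane protein Smo inactive. Once ligand is bound, Smo acts in the primary cilium to turn the Gli proteins from repressors into activators, and *Ptch1*, *Gli1* and *Hhip* are themselves classical targets, so that their RNA is widely used as a readout of the pathway. In the egg cylinder *Ihh* is known as a product of the visceral endoderm, from which it acts on nearby mesoderm and on blood and vessel formation in the yolk sac. *Shh* is known from the node and notochord, which form later, and *Dhh* from Sertoli, Schwann and endothelial cells. In the pregnant uterus *Ihh* is made by the epithelium under progesterone and acts on *Ptch1* and *Nr2f2* in the stroma.

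Values are FPKM, the fragments on a transcript divided by its length and by the mapped fragments of the library. They are levels per length, so that genes can be compared within a library. Each genotype has 1 library, so the variation among embryos is unknown and the genotypes could not be tested against each other. The intervals given are 95% intervals from the estimated number of fragments, and they cover counting error only. A gene counted as higher or lower in a comparison when its FPKM was at least 1 in the higher library and its log2 ratio was at least 1 in size, without a pseudocount. All comparisons share libraries: WT is the reference of 2 of them, and tw18/tw18 is set against both others.

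*Ppp2r1a* had an FPKM of 146 in WT, 81.7 in tw18/+ and 12.8 in tw18/tw18, the order the labels give. The level in tw18/tw18 was not 0, although the deletion removes both copies, and the source of this RNA was not tested. The depth of tw18/+ and of tw18/tw18 was estimated at 1.40 times that of WT from the steps of low FPKM values. Between 11859 and 12402 genes per library had an FPKM of 1 or more, and between 7178 and 8328 genes were listed at 0. The libraries also differed in genes of maternal and extra-embryonic tissues, which are given beside the Hedgehog genes after their values.

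*Ihh* had a higher level in tw18/tw18 than in the other libraries, and *Ptch1* and *Gli2* had lower levels, with *Ptch1* against tw18/+ turning to 0.14 when values were centred on epiblast markers. *Smo* and *Gli1* were lower by less than the threshold, a direction that turned on the same scale, and *Gli3* differed little. *Shh*, *Dhh* and *Hhip* stayed at low levels in every library, all under an FPKM of 1.

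The 9 genes lie on 7 chromosomes of the GRCm38 build. *Ihh* (ENSMUSG00000006538.12) spans chr1:74945315-74951672 and *Gli2* (ENSMUSG00000048402.14) chr1:118834132-119053619, both on the minus strand. *Ptch1* (ENSMUSG00000021466.12) spans chr13:63508328-63573598 on the minus strand and *Gli3* (ENSMUSG00000021318.15) chr13:15463235-15730026 on the plus strand. *Smo* (ENSMUSG00000001761.7) lies on the plus strand of chr6:29735503-29761365. *Gli1* (ENSMUSG00000025407.7) lies on the minus strand of chr10:127329882-127341974. *Hhip* (ENSMUSG00000064325.4) spans chr8:79965851-80058006, *Shh* (ENSMUSG00000002633.4) chr5:28456815-28467256 and *Dhh* (ENSMUSG00000023000.5) chr15:98891152-98898540, all on the minus strand. None of them is on chromosome 17, where the tw18 deletion lies.

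For the 3 genes that passed the threshold between tw18/tw18 and WT, the RefSeq promoter on the reference genome (GRCm38.p6), from 250 bases before to 50 bases after the start of the transcript, is shown 5′ to 3′ in the direction of transcription. They are shown because *Ptch1* and *Gli2* were lower in the library in which *Ihh* was higher, and because GLI proteins bind DNA at known letters. Capitals mark CCACCC or its reverse complement GGGTGG, the core of the GLI binding site, which overlaps the CACCC boxes bound by SP and KLF factors.
*Ihh*, chr1:74951623-74951922, minus strand: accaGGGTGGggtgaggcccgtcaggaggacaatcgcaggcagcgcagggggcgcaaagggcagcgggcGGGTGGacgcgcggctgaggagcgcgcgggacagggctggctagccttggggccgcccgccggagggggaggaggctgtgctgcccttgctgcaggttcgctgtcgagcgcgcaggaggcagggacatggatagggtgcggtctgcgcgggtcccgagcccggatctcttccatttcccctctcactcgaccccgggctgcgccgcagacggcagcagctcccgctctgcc
*Ptch1*, chr13:63565686-63565985, minus strand: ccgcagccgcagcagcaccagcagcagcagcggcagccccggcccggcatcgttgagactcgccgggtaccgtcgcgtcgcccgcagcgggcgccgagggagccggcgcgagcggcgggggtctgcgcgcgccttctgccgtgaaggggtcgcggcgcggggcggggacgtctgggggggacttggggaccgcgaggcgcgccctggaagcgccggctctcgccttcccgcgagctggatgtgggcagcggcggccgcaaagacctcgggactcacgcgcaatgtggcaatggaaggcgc
*Gli2*, chr1:119053570-119053869, minus strand: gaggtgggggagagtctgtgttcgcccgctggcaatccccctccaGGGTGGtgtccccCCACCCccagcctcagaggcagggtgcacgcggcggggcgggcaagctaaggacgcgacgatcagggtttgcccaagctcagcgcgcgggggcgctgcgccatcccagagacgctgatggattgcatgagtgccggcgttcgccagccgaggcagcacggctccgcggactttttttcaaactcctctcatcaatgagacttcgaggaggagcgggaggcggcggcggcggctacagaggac
The core was found 2 times in the *Ihh* window and 2 times in the *Gli2* window, and not in the *Ptch1* window, which lies inside the annotated span of the gene. Among all 32851 promoters of the same length, 31.5% held the core on either strand. The full GLI consensus GACCACCCA, or TGGGTGGTC on the other strand, was in 0.253% of all promoters and in 0 of the 7 promoters of the 9 genes that had an entry. *Dhh*, *Smo*, *Hhip* and *Gli3* each held the core 1 time. *Shh* and *Gli1* had no entry. A match is a run of letters and not a measured site.
The promoters of the 7 genes had between 61.7% and 76.3% G and C, against a median of 52.7% over all promoters. The *Ptch1* window held 47 CpG dinucleotides, the *Ihh* window 30 and the *Gli2* window 28, against a median of 7.

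*Ihh* was the most abundant ligand in each library. Its FPKM was 1.75 in WT (95% counting interval 1.34 to 2.26), 0.955 in tw18/+ (0.704 to 1.28) and 3.69 in tw18/tw18 (3.17 to 4.28). These levels rest on about 59.6, 45.7 and 176 fragments. The level in tw18/tw18 was thus the highest and that in tw18/+ the lowest, and no 2 of the counting intervals overlapped. The log2 ratio of FPKM between tw18/tw18 and WT was 1.08 (0.64 to 1.52), which is 2.11-fold higher in tw18/tw18. The threshold of 1 lies within this interval. With a pseudocount of 1 the difference was 0.77, under the threshold. Against tw18/+ the log2 ratio was 1.95 (1.47 to 2.44), 3.87-fold. Between tw18/+ and WT it was -0.87 (-1.46 to -0.29), under the threshold. Among all 23421 genes the *Ihh* level stood at percentile 53.5 in WT, 49.0 in tw18/+ and 58.8 in tw18/tw18.

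*Shh* was listed at 0 in WT and in tw18/tw18. In tw18/+ its FPKM was 0.233 (0.124 to 0.399), from about 13.0 fragments. An FPKM of 0.0756 in WT and of 0.0541 in tw18/tw18 would correspond to 3 fragments, the one-sided 95% limit that a count of 0 allows, and a listed 0 can also be a failed estimate. *Shh* is overlapped by 2 antisense genes, *9530036O11Rik* and *Gm26894*, of which *9530036O11Rik* had an FPKM of 0.0532 in tw18/+ and was listed at 0 in the other libraries.
*Dhh* was listed at 0 in WT, where 3 fragments would give 0.0498, and had an FPKM of 0.110 (0.0487 to 0.202) in tw18/+ and 0.154 (0.0822 to 0.264) in tw18/tw18. Between the last 2 libraries the log2 ratio was 0.49 with an interval from -0.80 to 1.94, so that no difference was detectable at about 9.26 and 13.0 fragments. *Dhh* shares exon sequence with *Rhebl1* on the same strand, including 10.3% of its 50-base words. *Rhebl1* was far more abundant, with an FPKM of 18.6, 20.9 and 17.9 in the order WT, tw18/+ and tw18/tw18, so the *Dhh* level is uncertain.
The summed FPKM of the 3 ligands was 1.75 in WT, 1.30 in tw18/+ and 3.85 in tw18/tw18. *Ihh* made up 100% of it in WT, 73.6% in tw18/+ and 96.0% in tw18/tw18. Neither *Shh* nor *Dhh* reached an FPKM of 1 in any library, and neither entered a comparison.

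**Figure D1:**
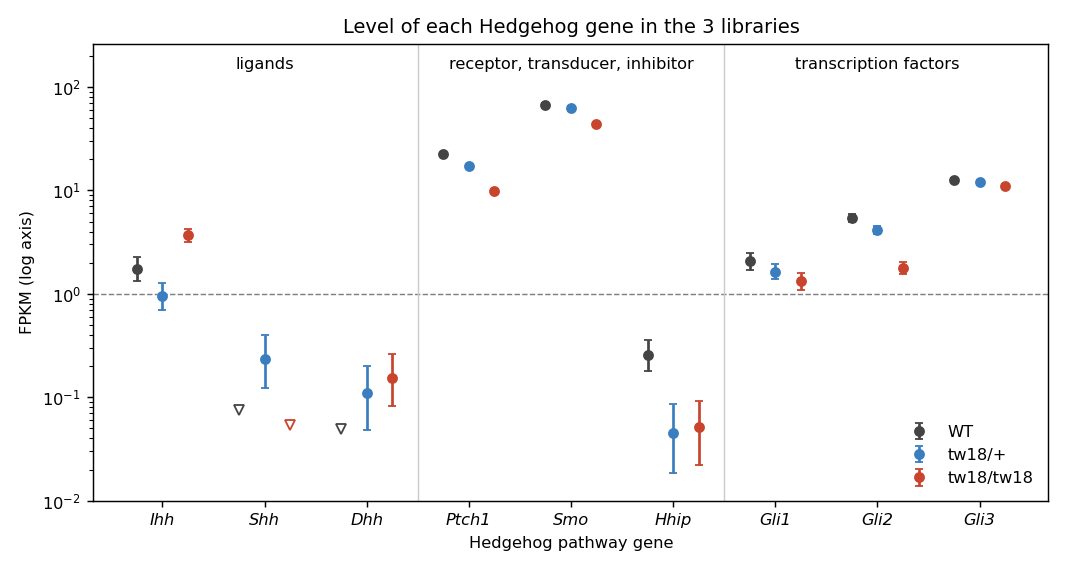
Level of the 9 Hedgehog genes in WT (grey), tw18/+ (blue) and tw18/tw18 (red), as FPKM on a log axis, with 1 library per genotype. Points are the deposited values, bars are 95% intervals of the estimated fragment count, open triangles mark the FPKM of 3 fragments for a gene listed at 0, and the dashed line is an FPKM of 1. *Ihh* is highest in tw18/tw18 at 3.69, while *Ptch1* and *Gli2* are lowest there on the deposited scale, at 9.91 and 1.78.

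*Ptch1*, the receptor and a classical target, had an FPKM of 22.3 in WT (21.4 to 23.2), 17.3 in tw18/+ (16.6 to 17.9) and 9.91 in tw18/tw18 (9.42 to 10.4). About 2486, 2702 and 1544 fragments support these levels. The order was WT over tw18/+ over tw18/tw18, with no overlap of the counting intervals. Between tw18/tw18 and WT the log2 ratio was -1.17 (-1.26 to -1.08), which is 2.25-fold lower in tw18/tw18. It was -0.96, under the threshold, after rescaling the libraries to equal FPKM sums. The log2 ratio was -0.80 (-0.89 to -0.71) between tw18/tw18 and tw18/+, where it turned to 0.14 after centring on epiblast markers, and between tw18/+ and WT it was -0.37 (-0.45 to -0.29). The gene stood at percentile 85.3 of all genes in WT and 72.7 in tw18/tw18.
*Smo*, which carries the signal into the cell, was the most abundant of the 9 genes in every library. Its FPKM was 67.2 (65.0 to 69.4), 62.9 (61.1 to 64.7) and 43.5 (42.0 to 45.0) in the order WT, tw18/+ and tw18/tw18, from about 3588, 4712 and 3244 fragments. The WT and tw18/+ intervals lay close together and that of tw18/tw18 lay apart below them. The log2 ratio was -0.63 (-0.70 to -0.56) between tw18/tw18 and WT and -0.10 (-0.16 to -0.03) between tw18/+ and WT, both under the threshold. *Smo* shared 1.56% of its 50-base words with *Gm4066*.
*Hhip*, which binds ligand at the cell surface and limits its range, was low in all libraries. Its FPKM was 0.255 in WT (0.179 to 0.362), 0.0457 in tw18/+ (0.0187 to 0.0855) and 0.0517 in tw18/tw18 (0.0224 to 0.0931). With about 33.5 fragments in WT against 8.42 and 9.49, it was highest in WT, and the interval of WT did not overlap the others. The log2 ratio was -2.30 (-3.65 to -1.31) for tw18/tw18 and -2.48 (-3.90 to -1.44) for tw18/+, each against WT. Since it was under an FPKM of 1 everywhere, it was not counted as lower in either. No difference between tw18/tw18 and tw18/+ was detectable at this depth, with a log2 ratio of 0.18 (-1.37 to 1.75).

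*Gli2*, the main activator among the Gli factors, differed most of the 3. Its FPKM was 5.38 in WT (4.92 to 5.86), 4.14 in tw18/+ (3.80 to 4.49) and 1.78 in tw18/tw18 (1.56 to 2.03), from about 513, 554 and 238 fragments. The intervals of the 3 libraries did not overlap. The log2 ratio was -1.59 (-1.82 to -1.37) between tw18/tw18 and WT, which is 3.02-fold lower, and -1.22 (-1.44 to -0.99) between tw18/tw18 and tw18/+. The latter was under the threshold with equal FPKM sums (-0.97) and with a pseudocount of 1 (-0.89). Between tw18/+ and WT it was -0.38 (-0.55 to -0.20), under the threshold.
*Gli1*, which acts only as an activator and is itself a target, had an FPKM of 2.08 in WT (1.71 to 2.48), 1.64 in tw18/+ (1.38 to 1.95) and 1.32 in tw18/tw18 (1.08 to 1.60). These are about 119, 133 and 106 fragments. Neighbouring intervals overlapped, and only those of WT and tw18/tw18 were separate. The log2 ratio between these 2 was -0.65 (-1.04 to -0.26), and it was -0.34 (-0.70 to 0.04) between tw18/+ and WT and -0.31 (-0.70 to 0.06) between tw18/tw18 and tw18/+. *Gli1* overlaps exons of *Arhgap9* on the opposite strand, whose FPKM was 1.20, 1.40 and 2.53 in the order WT, tw18/+ and tw18/tw18. The library kit keeps the strand, but whether the counting used it is not given in the sources used here.
*Gli3*, the main repressor, was the most abundant Gli gene in every library. Its FPKM was 12.7 in WT (12.0 to 13.3), 12.1 in tw18/+ (11.5 to 12.6) and 11.1 in tw18/tw18 (10.6 to 11.6), from about 1493, 1996 and 1829 fragments. The values of WT and tw18/+ overlapped within their intervals, and that of tw18/tw18 overlapped the interval of tw18/+ at its edge. The log2 ratio between tw18/tw18 and WT was -0.19 (-0.29 to -0.09), and its sign turned (0.021) when the libraries were rescaled to equal FPKM sums, so no direction is given for *Gli3*.

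**Figure D2:**
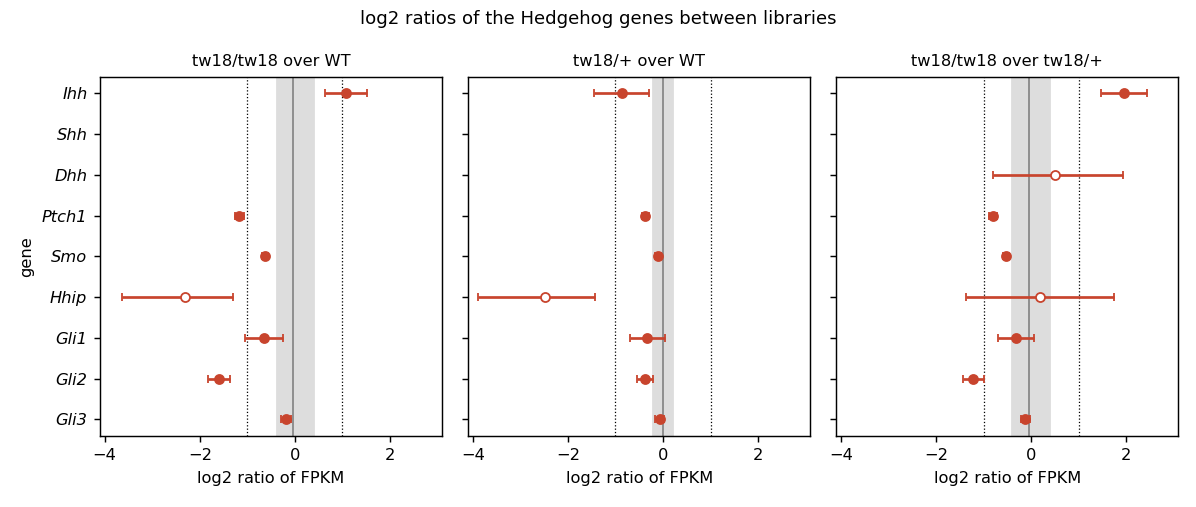
log2 ratio of FPKM for each of the 9 genes in the 3 pairs of libraries, with 95% counting intervals as bars. Filled points had an FPKM of at least 1 in the higher library, open points did not, genes listed at 0 in 1 or both libraries have no point, dotted lines mark log2 ratios of -1 and 1, and the grey band and line are the middle 50% and the median of all genes at or over an FPKM of 1 in each library. *Ihh* lies to the right in both pairs with tw18/tw18 and to the left in tw18/+ over WT, and *Gli2* lies furthest to the left among the filled points of tw18/tw18 over WT.

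Between tw18/tw18 and WT, 6 of the 9 genes had an FPKM of at least 1 and entered the comparison. Of these, 1 was higher (*Ihh*) and 2 were lower (*Ptch1* and *Gli2*). Over all 12917 genes that entered, 15.1% were higher and 6.94% were lower. The share of higher genes is near its background and that of lower genes is above it, but with 6 genes from 1 library each these counts describe single genes.
Between tw18/tw18 and tw18/+, again with 6 genes entering, 1 was higher (*Ihh*) and 1 was lower (*Gli2*), beside 14.9% higher and 5.65% lower of 12846 genes. Between tw18/+ and WT, 0 of the 6 genes passed the threshold in either direction, beside 4.7% higher and 5.02% lower of 12426 genes. Across the 11069 genes at or over an FPKM of 1 in each library, the median log2 ratio was -0.049 for tw18/tw18 and 0.0038 for tw18/+, each against WT. The middle 50% of these genes lay between -0.38 and 0.39 for tw18/tw18. *Ihh*, *Ptch1*, *Smo*, *Gli1* and *Gli2* lay outside that range and *Gli3* inside it.
The summed FPKM of the tw18/tw18 library was smaller than that of WT, 383409 against 444064. Rescaling to equal sums therefore adds 0.21 to each log2 ratio of tw18/tw18 against WT. Part of this gap is *Lars2*, at an FPKM of 11199 in WT and 9689 in tw18/+ and listed at 0 in tw18/tw18. Small log2 ratios after this rescaling, such as that of *Gli3*, thus depend in part on 1 gene. Quotients within 1 library do not depend on this scaling.

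Within each library, the *Smo* level was 3.01 times that of *Ptch1* in WT, 3.64 times in tw18/+ and 4.39 times in tw18/tw18. *Ptch1* stood at 12.8 times the level of *Ihh* in WT, 18.1 times in tw18/+ and 2.68 times in tw18/tw18. Receptor RNA thus exceeded ligand RNA in each library, and by the smallest factor in tw18/tw18.
Among the transcription factors *Gli3* took its largest share in tw18/tw18. The quotient of *Gli3* to *Gli2* was 2.35 in WT, 2.91 in tw18/+ and 6.23 in tw18/tw18, and that of *Gli3* to *Gli1* was 6.09, 7.34 and 8.37. *Gli3* made up 62.9% of the summed FPKM of the 3 Gli genes in WT, 67.6% in tw18/+ and 78.1% in tw18/tw18. The share of *Gli2* was 26.7%, 23.2% and 12.5% in the same order, and that of *Gli1* was 10.3%, 9.21% and 9.33%. The sum itself was 20.1 in WT, 17.8 in tw18/+ and 14.2 in tw18/tw18.

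Besides the 9 genes, 39 other genes of the pathway were listed in 4 groups, ligand release and spread, receptors and co-receptors, ciliary transduction, and Gli control. Of the 38 that entered the comparison of tw18/tw18 with WT, 7 were higher, beside 15.1% of all genes, with a median log2 ratio of 0.17. Between tw18/+ and WT, 2 of 36 were higher and 1 was lower, shares near the 4.7% and 5.02% of all genes, with a median of 0.031. Against tw18/+, 7 of 38 were higher in tw18/tw18, beside 14.9% of all genes, with a median of 0.22. Over all genes that entered the same comparisons and were not listed at 0, the medians were -0.016 for tw18/tw18 against WT, 0.0021 for tw18/+ against WT and 0.0033 for tw18/tw18 against tw18/+.

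Genes for the release and spread of ligand were higher in 4 of 6 cases between tw18/tw18 and WT, and 0 were lower, with a median log2 ratio of 1.41 over the 5 not listed at 0. Of these 4 genes, *Hhat*, *Scube2* and *Scube3* were under an FPKM of 1 in WT and entered only through tw18/tw18, so the count leans upwards, and it was 0 among genes at an FPKM of 5 or more. The Scube genes encode secreted proteins that take up ligand from the producing cell. *Scube2* had an FPKM of 0.264 in WT, 1.85 in tw18/+ and 4.39 in tw18/tw18, a log2 ratio of 4.05 between tw18/tw18 and WT. *Scube1* was at 1.29, 1.38 and 4.43 and *Scube3* at 0.389, 0.330 and 1.03, with log2 ratios of 1.79 and 1.41. All 3 Scube genes were thus highest in tw18/tw18, and *Scube2* alone of them was also past the threshold between tw18/+ and WT.
*Disp1*, which exports the ligand, was at 2.62, 2.98 and 3.56, a log2 ratio of 0.44. *Hhat*, which adds the palmitate to the ligand and is named here after its values were seen, was listed at 0 in WT and had an FPKM of 0.604 in tw18/+ and 2.43 in tw18/tw18.

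Of 4 co-receptors and binding partners, 2 were higher in tw18/tw18 than in WT, beside 15.1% of all genes, with a median log2 ratio of 0.93. *Boc* was under an FPKM of 1 in WT and entered only through tw18/tw18. The count was 1 among genes at an FPKM of 5 or more. The co-receptors Cdon, Boc and Gas1 help Ptch1 to bind ligand, and their genes are known to be repressed by the signal. *Boc* had an FPKM of 0.376 in WT, 1.76 in tw18/+ and 3.04 in tw18/tw18, a log2 ratio of 3.01 between tw18/tw18 and WT. *Cdon* was at 4.68, 4.64 and 10.7, a log2 ratio of 1.20, and *Gas1* at 10.7, 7.47 and 17.0, a log2 ratio of 0.67 that is under the threshold. These 3 co-receptor genes were highest in tw18/tw18, where *Ptch1* was lowest. Only *Boc* had the reverse order of *Ptch1* over all libraries. Between tw18/+ and WT the log2 ratio of *Gas1* was -0.52, below 0 as for *Ptch1*, and that of *Cdon* was -0.01. Whether the signal acted on these genes was not tested. *Lrp2*, which encodes the endocytic receptor megalin that can take up ligand, was at 22.0, 22.9 and 30.7, a log2 ratio of 0.48. Relative to *Ptch1*, *Cdon* stood at 0.210 in WT, 0.268 in tw18/+ and 1.08 in tw18/tw18, and *Gas1* at 0.480, 0.432 and 1.72.

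Genes of the primary cilium and of Gli control differed less. In ciliary transduction 1 of 15 genes was higher in tw18/tw18 than in WT and 0 were lower, with a median log2 ratio of -0.10. The 1 gene was *Efcab7*, which anchors the Evc complex near Smo, with an FPKM of 2.59 in WT, 4.33 in tw18/+ and 6.14 in tw18/tw18, a log2 ratio of 1.25. *Evc*, of that complex, was at 3.43, 2.26 and 1.97, a log2 ratio of -0.80. *Tctn1*, of the ciliary transition zone, had a log2 ratio of -0.84, and *Ift172*, of intraflagellar transport, of 0.76.
Of the 13 genes of Gli control, 0 passed the threshold in either direction between tw18/tw18 and WT, and the median log2 ratio was -0.02. The largest difference was that of *Sufu*, which holds Gli proteins in the cytoplasm and promotes the repressor forms, with an FPKM of 29.3 in WT, 24.0 in tw18/+ and 15.9 in tw18/tw18, a log2 ratio of -0.88. *Ulk3*, a Gli kinase, had a log2 ratio of 0.81. *Prkar1a*, the regulatory subunit of protein kinase A, had 0.56, and *Btrc*, of the ubiquitin ligase that processes Gli proteins, had -0.54.

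**Figure D3:**
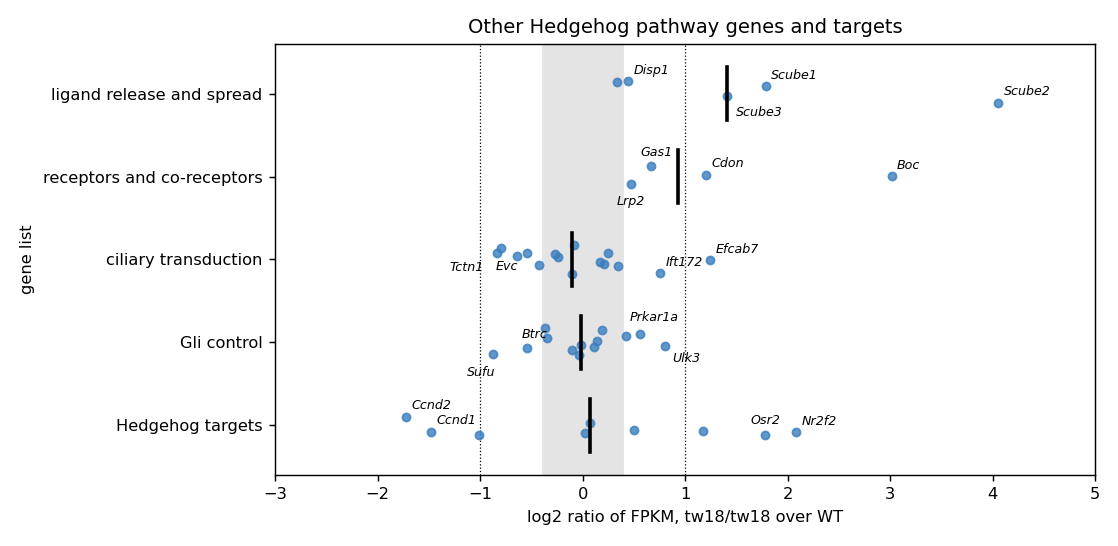
log2 ratio of FPKM between tw18/tw18 and WT for the other Hedgehog pathway genes and for known Hedgehog targets, grouped by list, for genes at or over an FPKM of 1 in at least 1 of these libraries and not listed at 0. Points are genes, black bars are list medians, the grey band is the middle 50% of all genes and dotted lines mark log2 ratios of -1 and 1. The medians lie at 1.41 for ligand release and spread and 0.93 for receptors and co-receptors, and close to 0 for the other lists.

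Genes that Hedgehog signalling is known to induce in other tissues did not share a direction. Of 16 listed, 9 entered the comparison of tw18/tw18 with WT. Of these, 3 were higher and 3 were lower, beside 15.1% and 6.94% of all genes, with a median log2 ratio of 0.07. Among the higher genes, *Osr2* was under an FPKM of 1 in WT and entered only through tw18/tw18. *Nr2f2*, a nuclear receptor that responds to *Ihh* in the uterine stroma, had an FPKM of 4.50 in WT, 4.79 in tw18/+ and 19.1 in tw18/tw18, a log2 ratio of 2.09. *Osr2*, a transcription factor of mesenchyme, was at 0.720, 1.52 and 2.47, a log2 ratio of 1.78. On the lower side *Ccnd2* was at 3.55, 2.46 and 1.08 and *Ccnd1* at 54.7, 46.8 and 19.6, with log2 ratios of -1.72 and -1.48. Both encode cyclins of the D type, which many other signals also induce.
*Foxf1*, a Hedgehog target of mesoderm, stayed under an FPKM of 1, with 0.418 in WT, 0.214 in tw18/+ and 0.0860 in tw18/tw18.

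A list of the uterine *Ihh* axis, from the progesterone receptor to stromal transcription factors, had 9 of 13 genes higher in tw18/tw18 than in WT and 0 lower, beside 15.1% and 6.94% of all genes, with a median log2 ratio of 1.20. Of these 9, the study places *Gata2* and *Hand2* with regulators of lateral mesoderm in the embryo. It also reports *Bmp2* as higher in the mutant. *Nr2f2* is in the list of Hedgehog targets too, and *Pgr*, *Hoxa10* and *Hoxa11* are also among the decidual markers. *Hoxa11*, a transcription factor of the uterine stroma, had an FPKM of 3.67 in WT, 6.87 in tw18/+ and 30.8 in tw18/tw18, a log2 ratio of 3.07. *Hoxa10* was at 7.64, 11.8 and 32.9, a log2 ratio of 2.11, and *Wnt4*, a ligand of decidualization, at 1.69, 3.32 and 11.2, a log2 ratio of 2.73. These 3 genes were named for the size of their log2 ratio, so their shared direction is not a separate result. Of the 13 genes, 10 had a log2 ratio above 0 between tw18/tw18 and WT and 3 below it. Between tw18/+ and WT, 6 of the 13 genes had a log2 ratio above 0 and 7 below it, with a median of -0.06.
A list of yolk sac mesoderm, blood and vessel genes, the tissues on which *Ihh* of the visceral endoderm is known to act, had 7 of 9 genes higher and 0 lower, beside the same shares of all genes, with a median log2 ratio of 1.45. The count was 3 among genes at an FPKM of 5 or more, and *Bmp6* and *Gata1* entered only through tw18/tw18. *Bmp6* had an FPKM of 0.240 in WT, 0.323 in tw18/+ and 1.15 in tw18/tw18. *Gata1* was at 0.914, 1.04 and 3.73, *Hand1* at 9.31, 14.0 and 34.6 and *Lmo2* at 1.37, 0.950 and 3.93. Their log2 ratios between tw18/tw18 and WT were 2.25, 2.03, 1.90 and 1.52. The embryonic globin genes *Hba-x*, *Hbb-y* and *Hbb-bh1* were listed at 0 in every library.

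Markers of the cell types that could hold Hedgehog transcripts differed between the libraries as well, and the part of any of them in the values above was not tested. Beside the marker counts that follow, 15.1% of all genes were higher and 6.94% were lower between tw18/tw18 and WT. A marker under an FPKM of 1 in WT entered only through tw18/tw18 and could not count as lower, so counts with such markers lean upwards. Likewise, a marker under an FPKM of 1 in tw18/tw18 entered only through WT and could not count as higher. In bulk RNA, fewer cells of a type and less RNA per cell cannot be told apart. Of 10 epiblast markers, 5 were lower and 1 was higher in tw18/tw18 than in WT, with a median log2 ratio of -0.85, and their summed FPKM was 1878 in WT, 2005 in tw18/+ and 964 in tw18/tw18. *Ptch1*, at -1.17, and *Gli2*, at -1.59, were lower than this median and within the range of the markers, from -2.11 to 1.01. *Smo*, *Gli1* and *Gli3* were above the median. Relative to the epiblast median, a scale added after the values were seen, *Ptch1* stood at -0.32 and *Gli2* at -0.75, and the log2 ratios of *Smo* (0.22), *Gli1* (0.20) and *Gli3* (0.66) were above 0. Against tw18/+, the log2 ratios of *Ptch1* (0.14), *Smo* (0.41), *Gli1* (0.63) and *Gli3* (0.82) were above 0 on this scale, and that of *Gli2* was -0.27.
Of 14 visceral endoderm markers, the cells known for *Ihh* at this stage, 0 were higher and 0 were lower by the threshold, 13 had a log2 ratio above 0 and the median was 0.44. After rescaling to equal FPKM sums, 3 of the 14 were higher. Their summed FPKM was 954 in WT, 934 in tw18/+ and 1249 in tw18/tw18. *Ihh*, at 1.08, lay above each of them, but its counting interval of 0.64 to 1.52 holds several of their values, up to the 0.97 of *Gata6*. Parietal endoderm markers, whose main products are basement membrane proteins that other cells also make, were higher in 7 of 8 cases with a median of 1.19. Extra-embryonic ectoderm markers were higher in 7 of 9 cases with a median of 1.33, although that tissue was set aside for genotyping. This count was 3 among markers at an FPKM of 5 or more, and *Cdx2* and *Bmp8b* entered only through tw18/tw18.
Maternal cell types differed too. Uterine epithelium markers, of the cells that make *Ihh* in pregnancy, were higher in 3 of 8 cases and lower in 0. Their median was 0.65, and the count was 1 among markers at an FPKM of 5 or more. *Lif* and *Cldn3* entered only through tw18/tw18. The summed FPKM of the list was 235 in WT, 250 in tw18/+ and 326 in tw18/tw18. *Krt18* and *Epcam*, which the embryo also expresses, make up most of it, and *Ltf*, a defining gene of the epithelium, was listed at 0 in WT and tw18/+ and had an FPKM of 0.666 in tw18/tw18. Decidual markers were higher in 3 of 8 cases and lower in 3. *Prl8a2*, the most abundant of them, had an FPKM of 1504 in WT, 155 in tw18/+ and 377 in tw18/tw18, highest in WT.
Stromal markers were higher in 6 of 10 cases with a median of 1.83 and summed to 99.9 in WT, 89.3 in tw18/+ and 361 in tw18/tw18. Endothelial markers were higher in 6 of 10 cases with a median of 1.56, and smooth muscle markers in 4 of 6, with 2 lower and a median of 2.14. At an FPKM of 5 or more, 3 endothelial and 3 smooth muscle markers passed the threshold. *Lum*, *Tek*, *Tie1* and *Mylk* entered only through tw18/tw18. The 2 lower smooth muscle markers, *Cnn1* and *Actg2*, entered only through WT. Like *Ihh*, the summed endothelial markers were lowest in tw18/+, at 47.9, with 61.4 in WT and 125 in tw18/tw18. The same order held for the summed markers of visceral endoderm, stroma, extra-embryonic ectoderm, trophoblast giant cells and immune cells. It did not hold for the other marker lists. Sums follow their most abundant genes, and not every marker had this order. *Prl3d1* made up most of the giant cell sum, while *Hand1* was lowest in WT. So were the endothelial *Tek*, *Tie1*, *Emcn* and *Egfl7*, and *Csf1r* of the immune list was highest in WT. The visceral endoderm sums of WT and tw18/+ lay close together, at 954 and 934. Erythroid markers were higher in 3 of 4 cases and lower in 1. Fragments of the nearly identical *Hba-a1* and *Hba-a2* may have been assigned to either. The 3 higher erythroid markers entered only through tw18/tw18, and the lower gene, *Hba-a1*, only through WT. Immune markers were higher in 2 of 4 cases, of which *Gzmb* entered only through tw18/tw18. Trophoblast giant cell markers were higher in 1 and lower in 1 of 3, and the lower gene, *Prl2c2*, entered only through WT.
For *Shh*, a list of node and notochord genes, which includes *Shh*, had 3 of 5 genes higher and 1 lower in tw18/tw18. The lower gene was *T*, with an FPKM of 18.3 in WT and 6.16 in tw18/+, and listed at 0 in tw18/tw18. *Foxj1*, *Chrd* and *Nog* were the higher genes, and *Nog* entered only through tw18/tw18. Among genes at an FPKM of 5 or more, 2 passed the threshold in either direction. *Noto*, a defining gene of the node, was listed at 0 in every library. For *Dhh*, 0 of 4 Schwann cell markers reached an FPKM of 1 in any library, and *S100b* was listed at 0 in each.

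**Figure D4:**
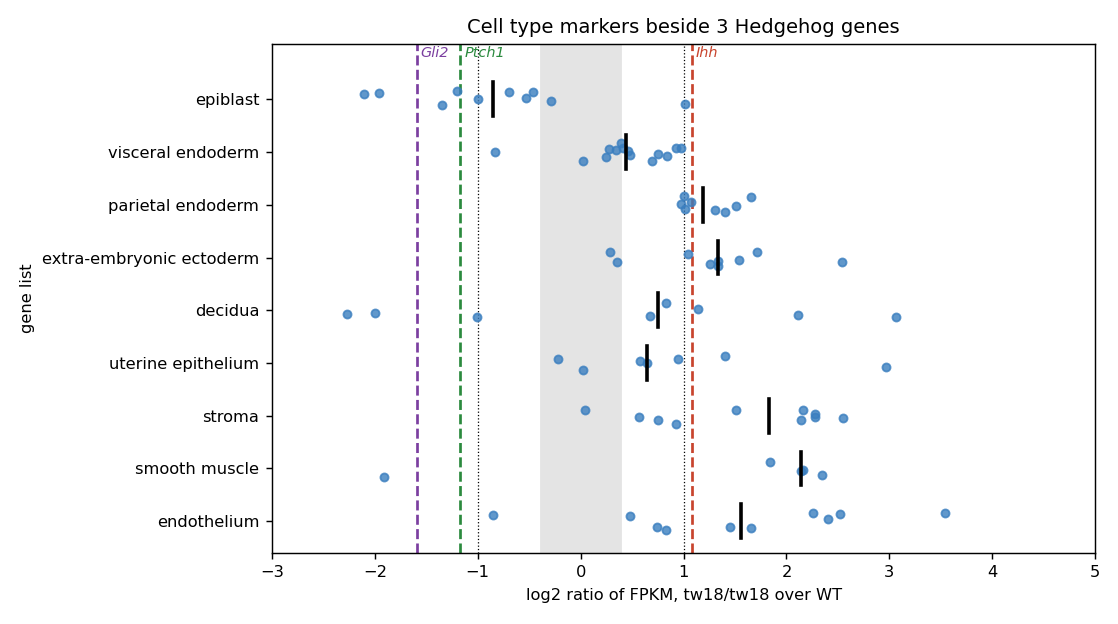
log2 ratio of FPKM between tw18/tw18 and WT for markers of 9 cell types, for genes at or over an FPKM of 1 in at least 1 of these libraries and not listed at 0, with *Ihh*, *Ptch1* and *Gli2* as dashed lines. Points are genes, black bars are list medians, the grey band is the middle 50% of all genes and dotted lines mark log2 ratios of -1 and 1. The *Ihh* line at 1.08 (counting interval 0.64 to 1.52) lies above the visceral endoderm markers, several of which fall within that interval, and the *Ptch1* and *Gli2* lines at -1.17 and -1.59 lie below the epiblast median of -0.85 and within the range of the epiblast markers.

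The genes whose pattern was most like that of *Ihh*, *Ptch1* and *Gli1* were found from the distance in the pair of log2 ratios of tw18/+ and tw18/tw18 against WT, over 3 libraries. Nearest to *Ihh* were *Smlr1* (distance 0.015), *Cdh4* (0.066) and *Prl3d3* (0.069), and 25 of 9321 genes lay within 0.2. *Prl3d3*, of a family of near-identical trophoblast prolactins, had an FPKM of 40.7 in WT, 22.9 in tw18/+ and 82.8 in tw18/tw18. Few genes thus shared the order of *Ihh*, with tw18/+ lowest and tw18/tw18 highest, at its spacing.
Nearest to *Ptch1* were the clustered histone gene *Hist1h2bf* (0.011), the transcription factor gene *Etv1* (0.025) and *Asap2* (0.035), and 86 of 9320 genes lay within 0.2. Nearest to *Gli1* were *Pls3* (0.010), *Gfod2* (0.013) and *Thoc5* (0.015), and 310 of 9321 genes lay within 0.2. Of the 3 patterns, that of *Gli1* had the most genes within this distance among those searched.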

How the data were processed

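RNA of E6.5 embryos was sequenced as strand-specific, ribosomal RNA-depleted total RNA with paired-end reads of 50 bases, in 1 library each of WT, tw18/+ and tw18/tw18. Per the labels, the authors mapped reads to mm10 with TopHat2 and Bowtie 1.0.0 and computed the deposited FPKM values with Cuffdiff of Cufflinks 2.2.1. The annotation is not given in the sources used here. No counts are in the table, so no count test was run.

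Fragments per gene were estimated from the steps of low FPKM values in genes with a single transcript of at least 600 bases, with 150 bases allowed for the fragment length and the longest coding transcript of GENCODE M21 as length. Of the low values used (141 in WT, 297 in tw18/+ and 219 in tw18/tw18), between 71.7% and 83.0% lay within 0.2 of a whole number, so fragment numbers are approximate. An allowance of 0 bases fitted tw18/+ (83.6% against 72.1%) and tw18/tw18 (85.6% against 71.7%) more closely, but not WT (81.8% against 83.0%). With 0 bases the fragment numbers of *Ptch1* and *Gli3* moved beyond their counting error. Intervals of 95% are exact Poisson for levels and exact binomial (Clopper-Pearson) for ratios. PCR copies are counted as separate molecules in them. Calls and depth were run on simulated Poisson counts with the same 150-base allowance and with changes larger than those of *Ihh*, *Ptch1* and *Gli2*. The genes changed in it had a mean FPKM of at least 5. That run checked the code and could not test the calls of *Ihh*, *Ptch1* or *Gli2*. Python 3.11.15 was used (numpy 2.4.6, scipy 1.17.1, pandas 2.3.3, matplotlib 3.10.9).

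The 9 genes and all lists were chosen with earlier results of these data known. From each pathway, target, uterine and yolk sac list, up to 4 genes with the largest log2 ratio of tw18/tw18 against WT were named, among those at or over an FPKM of 1 in 1 of these libraries and at 0 in neither. Of the listed genes, 2 are not reported here and were left out of every list count and median. Marker genes and genes at 0 were named after their values were seen. Likeness was searched among genes at or over an FPKM of 1 in each library and 5 in 1. Loci came from GENCODE M21 and promoters from RefSeq, with 7 of 9 genes matched. The alternatives were pseudocounts of 0.1 and 1, an FPKM of at least 5, no filter on low values, a threshold of 1.5-fold, centring on the median log2 ratio, equal FPKM sums, allowances of 0 and 250 bases and, added after seeing the data, centring on the epiblast markers.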

Additional observations from a re-analysis of the deposited data

How the results depend on the processing

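With 1 library per genotype no replicate could be left out, and the variation among embryos is unknown for every value. No paired analysis was possible because the labels carry no replicate numbers. Between tw18/tw18 and WT, 3 of the 9 genes passed the threshold, and this number was 5 without a filter on low values, 5 with a threshold of 1.5-fold and 1 (*Ihh*) after centring on the epiblast markers. It was 3 or 2 under the other alternatives. Between tw18/+ and WT the number was 0, and it was 3 without a filter on low values and 1 (*Ihh*) with a threshold of 1.5-fold. Between tw18/tw18 and tw18/+ it was 2, and it was 3 without a filter on low values, 3 with a threshold of 1.5-fold, 1 with libraries scaled to equal FPKM sums, 1 with a pseudocount of 1, 1 after centring on the epiblast markers and 0 with an FPKM of at least 5, which neither *Ihh* nor *Gli2* reaches in these 2 libraries.

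Of the log2 ratios of the 9 genes under the alternatives, 84 stayed within their counting error, 17 moved further and 9 turned. The latter came from the scale alone. After centring on the epiblast markers they were 0.22 for *Smo*, 0.20 for *Gli1* and 0.66 for *Gli3* between tw18/tw18 and WT, and against tw18/+ they were 0.14 for *Ptch1*, 0.41 for *Smo*, 0.63 for *Gli1* and 0.82 for *Gli3*. After rescaling to equal FPKM sums, *Gli3* was at 0.021 against WT and 0.13 against tw18/+. The log2 ratio of *Ihh* between tw18/tw18 and WT ranged from 0.77 to 1.93, that of *Ptch1* from -1.17 to -0.32 and that of *Gli2* from -1.59 to -0.75. *Shh*, *Dhh* and *Hhip* are limited by depth.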
